A study of Mus musculus with 12 samples.

Results

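Isolated optic nerves of male C57Bl/6 mice exposed to oxygen-glucose deprivation (OGD) with the drug MS-275 (OGD+MS-275, 3 samples) were compared with untreated nerves (Control, 3 samples). These 6 samples were chosen by the agent field of the labels from 12 samples in 4 groups of 3. The other groups are nerves under OGD with CX-4945, an inhibitor of casein kinase 2, and nerves under OGD alone. MicroRNAs were counted on an nCounter panel, where each miRNA is ligated to a tag and the barcodes bound to the tagged molecules are counted without amplification. The sources used here do not give doses, exposure times, whether drug or OGD came first, or how many nerves or animals a sample holds. The 4 groups hold no nerves given MS-275 without OGD, so the drug and the deprivation cannot be told apart in this comparison. The comparison of OGD+MS-275 with OGD alone, given beside the main results, removes the Control mean.

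MS-275, also called entinostat, blocks the class I histone deacetylases, which are enzymes that remove acetyl groups from histones and so help keep chromatin closed. OGD withholds oxygen and glucose from living tissue and is used as a model of ischemia. The optic nerve is a white-matter tract of axons, oligodendrocytes, astrocytes, microglia and vessels, with no neuronal cell bodies of its own. A miRNA is cut from a hairpin precursor that can yield a mature strand from either arm, named 5p and 3p. Its seed, bases 2 to 8 of the mature strand, pairs with target mRNAs, so miRNAs that share a seed form a family. In bulk tissue, fewer cells of a type and less of a miRNA per cell cannot be told apart.

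The results below turn on the arms of Mir338 and on miRNAs that share a seed. Mature and hairpin sequences are those of RefSeq on mouse build GRCm38.p6, written 5′ to 3′. The Mir338 hairpin lies at chr11:120014765-120014862 on the minus strand. It is shown first with both mature arms in capitals, miR-338-5p nearer the 5′ end and miR-338-3p nearer the 3′ end. In all later lines the capitals mark the seed.
Mir338 hairpin: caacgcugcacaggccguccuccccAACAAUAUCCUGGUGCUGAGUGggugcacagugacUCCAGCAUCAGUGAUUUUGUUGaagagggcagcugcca
miR-338-5p: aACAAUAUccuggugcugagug
miR-338-3p: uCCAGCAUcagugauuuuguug
miR-27a: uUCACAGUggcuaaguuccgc
miR-27b: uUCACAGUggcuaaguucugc
miR-30c: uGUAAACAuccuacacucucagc
miR-30a: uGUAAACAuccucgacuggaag
miR-15a: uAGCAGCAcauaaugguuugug
miR-16: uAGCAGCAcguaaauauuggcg
miR-195: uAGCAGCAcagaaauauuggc
miR-99a: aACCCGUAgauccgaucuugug
miR-100: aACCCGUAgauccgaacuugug
miR-103: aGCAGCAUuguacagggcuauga
miR-107: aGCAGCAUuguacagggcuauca
miR-22: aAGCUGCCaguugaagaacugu
miR-376a: aUCGUAGAggaaaauccacgu

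Of the 26 miRNAs whose sequences were looked up, 6 carry the same name in RefSeq. The other 20 have an older name without an arm on the panel and were paired with the guide arm that this name is generally taken to denote, as for every miRNA shown here except the pair from Mir338.  The RefSeq set used here held no mature sequence under the names miR-2133, miR-2134, miR-2140 and miR-2141, described below, so they are named only. Whether the probes under these names count true miRNAs was not tested.

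The panel held 566 mouse miRNAs, and 217 were tested. A miRNA was tested when its raw count exceeded the lane's background limit, the mean plus 2 SD of 8 negative controls, in at least 3 of the 12 lanes. The limit lay between 38.7 and 51.6 counts in the OGD+MS-275 lanes and between 32.0 and 33.7 in the Control lanes. The total mouse miRNA count ran from 337853 to 465509 per OGD+MS-275 lane and from 302003 to 374440 per Control lane. Of the tested miRNAs, 181 exceeded the limit in all 6 of these lanes. Markers of the labelled tissue were abundant. The oligodendrocyte miRNAs miR-338-3p and miR-219 were among the 10 most abundant miRNAs in both groups. None of 33 viral targets on the panel exceeded the limit in any lane.

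A log2 fold change over 1 in either direction was found for 4 of the 217 miRNAs. 106 of the 217 had a higher mean in OGD+MS-275 and 111 a lower one. The median log2 fold change was -0.00, and it ran from -0.49 at the 5th percentile to 0.67 at the 95th. edgeR's quasi-likelihood test with Benjamini-Hochberg adjustment over the 217 called 3 miRNAs higher (1.38% of those tested) and 0 lower (0.0%). They were miR-2133, miR-2134 and miR-338-5p, each with an edgeR adjusted p = 0.0497. An unadjusted p under 0.05 was found for 50 miRNAs (23.0%), 27 higher (12.4%) and 23 lower (10.6%). The 3 samples of OGD+MS-275 did not overlap those of Control for 62 miRNAs (28.6%), 33 higher (15.2%) and 29 lower (13.4%). For 189 of the 217 the 95% interval lay within a 2-fold change in either direction. The adjusted p of the 3 called miRNAs sat just under the threshold of 0.05, and without any Control sample, without OGD+MS-275 replicate 2 or 3, or without OGD replicate 1, 0 miRNAs were called. Without OGD+MS-275 replicate 1 the 2 called were miR-2140 and miR-2141 instead.

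The fold changes are relative to the bulk of miRNAs, because TMM scaling sets the typical miRNA to no change. When the 4 mRNA targets, the positive hybridisation controls or the ligation controls set the scale, the median of all 217 log2 fold changes moved to 0.36, 0.33 and -0.39. Directions given below for single miRNAs and lists are relative to that median. Without subtracting it, 3 of the 12 lower miRNAs of smallest p turned their sign when scaled by the mRNA targets.

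The positive ligation controls, synthetic RNAs that report how well the tagging step ran, had higher counts in every OGD+MS-275 lane than in any Control lane. Their geometric mean was 3155, 2991 and 2914 counts in the OGD+MS-275 lanes, against 1386, 1422 and 2369 in the Control lanes. The means were 3020 ± 123 and 1726 ± 558 (SD, n = 3 each; exact permutation test, two-sided p = 0.10, the smallest that 3 against 3 allows; 0.467 adjusted over 14 lane comparisons). In a fit with the ligation count as a covariate, 25 miRNAs had a slope within groups at an edgeR adjusted p under 0.05, 10 up and 15 down. Across the 217 miRNAs the slope and the log2 fold change of OGD+MS-275 over Control had r = 0.60, as a description, since both come from the same lanes. For 43 of the 50 miRNAs at an unadjusted p under 0.05 the 2 had the same sign, against 150 of all 217 (69.1%). With the covariate in the fit 0 miRNAs were called (lowest edgeR adjusted p = 0.450; 21 at an unadjusted p under 0.05). Group and ligation yield therefore moved together, and their parts in the results below cannot be told apart.

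**Figure D1:**
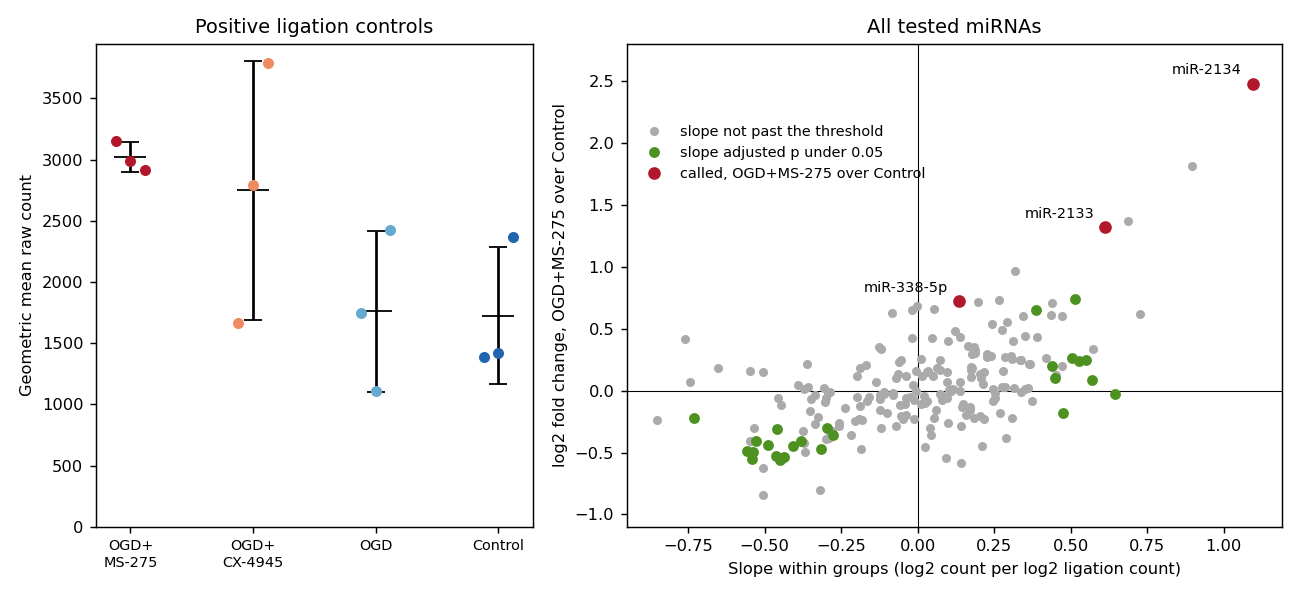
Left, geometric mean raw count of the 3 positive ligation controls in each lane of the 4 groups (points), with mean and SD (bars). Right, for each of the 217 tested miRNAs, the log2 fold change of OGD+MS-275 over Control against the slope of its log2 count on the log2 ligation count within groups. miR-2134 and miR-2133 lie to the upper right, at slopes of 1.09 and 0.61, and miR-338-5p lies at 0.13.

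miR-2134 had the largest fold change. It had 239, 237 and 289.9 normalised counts in the 3 OGD+MS-275 samples, against 66.4, 44.8 and 27.7 in the 3 Control samples. Every OGD+MS-275 sample lay far above every Control sample, and miR-2134 rose by a log2 fold change of 2.48 (SE 0.52; edgeR adjusted p = 0.0497). In raw counts it had 319, 272 and 284 in OGD+MS-275 lanes and 51, 34 and 27 in Control lanes, so the Control level was near the background limit and under it in 1 lane. OGD+CX-4945 samples had 40.1, 106 and 162 normalised counts and OGD samples 63.6, 37.6 and 127, all below the OGD+MS-275 samples. In raw counts the lowest sample of each of these groups lay under its lane's background limit. The log2 difference of OGD+MS-275 from OGD was 1.71 (SE 0.49) and did not pass (edgeR adjusted p = 0.173). Without the filter on low counts or with background subtracted, the difference from Control was 2.54 and 3.10 and no longer passed (adjusted p = 0.119 and 0.102), and with the ligation covariate it was 1.52 (adjusted p = 0.450).

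miR-2133 had 73.4, 74.8 and 73.5 normalised counts in OGD+MS-275, against 22.1, 36.9 and 29.7 in Control. The OGD+MS-275 samples were nearly equal and all above Control, and miR-2133 rose by a log2 fold change of 1.32 (SE 0.28; edgeR adjusted p = 0.0497). Raw counts in the Control lanes were 17, 28 and 29, below the lane's background limit each time, so its Control level is a background level. OGD samples, with 22.1, 26.6 and 32.9, were also under the limit. The filter therefore admitted miR-2133 through OGD+MS-275 and OGD+CX-4945 lanes only, which favours a higher value in OGD+MS-275. Without the filter its log2 fold change against Control was 1.37 (edgeR adjusted p = 0.0068). miR-2133 was the 1 miRNA of 217 (0.461%) called between OGD+MS-275 and OGD, higher by 1.44 (SE 0.28; edgeR adjusted p = 0.0264). In OGD+CX-4945 it had 30.6, 66.8 and 71.3, and the log2 difference of OGD+MS-275 from that group was 0.37 (SE 0.25). The call against Control was lost when the ligation controls set the scale (log2 fold change 0.95; edgeR adjusted p = 0.126), with background subtracted (2.30; 0.205) and with the ligation covariate (0.82; 0.450). It was also lost in the authors' deposited signal (2.58; limma adjusted p = 0.15).

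The same numbered series holds further members of this kind. Of the 11 miRNAs of the miR-2133 to miR-2146 series on the panel, 5 were tested. All 5 had higher means in OGD+MS-275, with groups that did not overlap (15.2% of all 217 tested), and 2 were called (1.38% of all tested). Their median log2 fold change was 1.37, where that of all tested miRNAs was -0.00. miR-2140 had 172, 399 and 363 normalised counts in OGD+MS-275, against 87.2, 83.0 and 94.3 in Control (log2 fold change 1.81, SE 0.47; edgeR adjusted p = 0.0793). miR-2141, the most abundant, had 927, 2163 and 1670, against 530.0, 678 and 630.1 (1.37, SE 0.38; adjusted p = 0.0863).

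Spread among the OGD+MS-275 samples was wide for miR-2140 and miR-2141, where replicate 1 was the lowest. miR-2146 had 214 ± 45.2 normalised counts in OGD+MS-275 and 138 ± 28.6 in Control (log2 fold change 0.62, SE 0.37; SD, n = 3 each). The summed count of the 5 ran from 1578 to 3091 in OGD+MS-275, from 631 to 1852 in OGD+CX-4945, from 719 to 1233 in OGD and from 811 to 993 in Control. The lists and the members to name were chosen with earlier results of these data known, so the shared direction of this series is a description. All 5 had positive slopes on the ligation count, from 0.61 for miR-2133 to 1.09 for miR-2134, and none of these slopes passed (edgeR adjusted p from 0.0673 to 0.154).

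**Figure D2:**
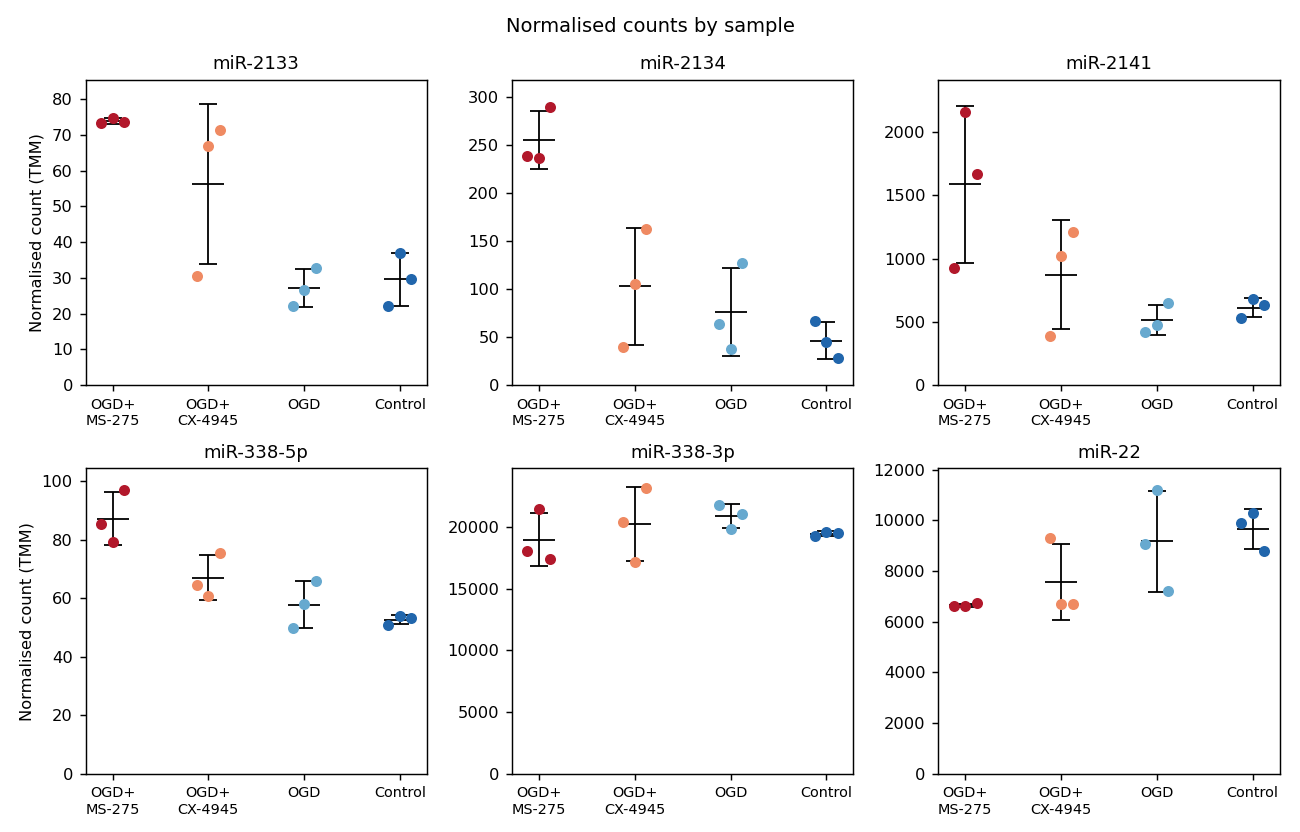
TMM-normalised counts of 6 miRNAs in each sample of the 4 groups (points), with mean and SD (bars), each axis starting at 0. The OGD+MS-275 samples lie above all Control samples for miR-2133, miR-2134, miR-2141 and miR-338-5p and below them for miR-22, and the groups overlap for miR-338-3p.

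miR-338-5p is the minor arm of Mir338, whose major arm miR-338-3p promotes oligodendrocyte differentiation. miR-338-5p had 85.4, 79.2 and 97.0 normalised counts in OGD+MS-275, against 50.8, 54.0 and 53.3 in Control. All OGD+MS-275 samples exceeded all Control samples, and miR-338-5p rose by a log2 fold change of 0.72 (SE 0.17; edgeR adjusted p = 0.0497). It exceeded the background limit in all 6 lanes, with raw counts of at least 91 in OGD+MS-275 and of 39, 41 and 52 in Control. OGD+CX-4945 samples had 64.4, 60.8 and 75.6, and OGD samples 49.8, 57.9 and 65.8, all below the lowest OGD+MS-275 sample. In raw counts the OGD sample at 57.9 lay under its lane's background limit. The log2 difference of OGD+MS-275 from OGD was 0.59 (SE 0.16; edgeR adjusted p = 0.149). The call against Control was lost with RLE factors (log2 fold change 0.70; adjusted p = 0.0517) and without the filter (0.77; 0.0752). It was also lost with the ligation covariate (0.61; edgeR adjusted p = 0.450) and in the authors' deposited signal (1.26; limma adjusted p = 0.708). With the ligation controls, positive controls and mRNA targets as the scale the log2 fold change was 0.34, 1.03 and 1.09 (adjusted p = 0.393, 0.141 and 0.167).

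The other arm of the same hairpin lay near its Control level. miR-338-3p had 18067, 21450 and 17439 normalised counts in OGD+MS-275, against 19248, 19621 and 19560 in Control, and the groups overlapped. Its log2 fold change was -0.04 (SE 0.12), with a 95% interval from -0.28 to 0.21. The ratio of the arms needs no scaling between lanes. Raw counts of miR-338-5p were 0.473%, 0.369% and 0.556% of those of miR-338-3p in OGD+MS-275 lanes, against 0.264%, 0.275% and 0.272% in Control lanes. The ranges were 0.315% to 0.354% in OGD+CX-4945 and 0.228% to 0.313% in OGD, below every OGD+MS-275 lane. The arms were measured with different probes, so the percentages are count ratios and not molar ratios. The raw counts include background, which for miR-338-5p was not subtracted here. With background subtracted its log2 fold change was 1.04 and did not pass (edgeR adjusted p = 0.102).

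Of the other oligodendrocyte-lineage miRNAs, miR-219, which drives myelination, had 8879, 14304 and 9947 normalised counts in OGD+MS-275, against 10144, 12270 and 15144 in Control (log2 fold change -0.18, SE 0.21). miR-138 had 283 ± 59.2 in OGD+MS-275 and 224 ± 38.7 in Control (0.34, SE 0.20; SD, n = 3 each). The groups overlapped for both. Of the 4 miRNAs in this list 2 had a higher mean (106 of 217 among all tested) and 1 was called (1.38% of all tested), with a median of 0.15.

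13 hairpins had both arms tested, and the arms of 7 differed from Control in the same direction and those of 6 in opposite directions. miR-338 was 1 of the 6. miR-199a was another, a miRNA of fibroblasts and mural cells. Its 3p arm had 582, 530.0 and 489 normalised counts in OGD+MS-275, against 901, 823 and 634 in Control (log2 fold change -0.56, SE 0.20), and its 5p arm 124 ± 8.47 and 104 ± 15.9 (0.25, SE 0.15; SD, n = 3 each). miR-129, a neuronal miRNA, was 1 of the 7. Its 3p arm had 2183, 2394 and 2255 in OGD+MS-275, against 1337, 1192 and 1563 in Control, and its 5p arm 116, 112 and 129, against 84.6, 67.2 and 83.0. The groups did not overlap for either arm of miR-129. Their log2 fold changes were 0.74 (SE 0.21; edgeR adjusted p = 0.0793) and 0.60 (SE 0.21; adjusted p = 0.112), and the ratio of the arms overlapped between groups.

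The 12 smallest p-values in each direction, among miRNAs that exceeded the limit throughout the group with the higher mean, gave 24 miRNAs to describe. Apart from the 3 called, none passed, with edgeR adjusted p-values from 0.0615 to 0.112. By the number in the sample titles, 2 OGD+MS-275 samples and 1 Control sample form a first set and 1 of each a second set. The labels do not say what the number marks. For miR-2134, miR-2133 and miR-338-5p the log2 ratio was 1.84, 1.74 and 0.70 within the first set and 2.70, 0.995 and 0.85 within the second. Control replicate 3 is in neither set and has no part in these ratios, which rest on too few samples for a test.

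**Figure D3:**
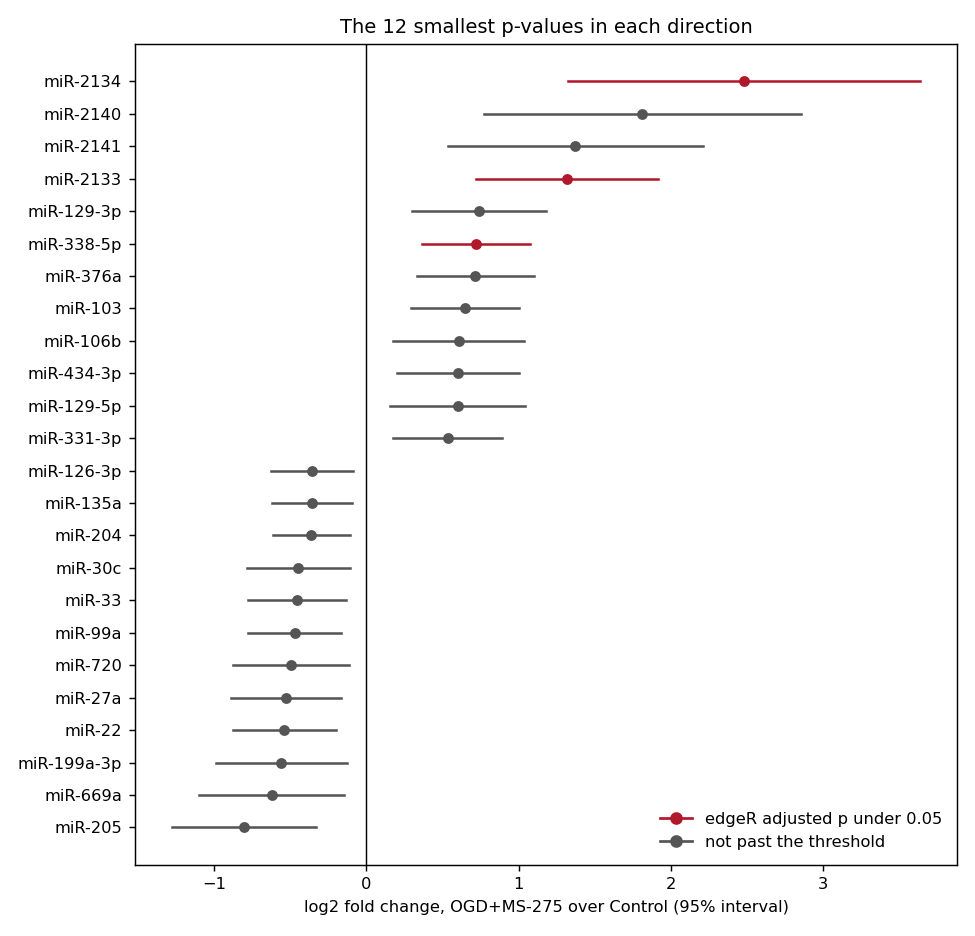
log2 fold change of OGD+MS-275 over Control (points) with its 95% interval (lines) for the 24 miRNAs with the smallest p in each direction, in order of size. The 3 called miRNAs are in red. Lower fold changes are smaller in size, from -0.80 for miR-205 to -0.36 for miR-204, miR-135a and miR-126-3p.

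Higher means without a call were also those of miR-376a, miR-103, miR-434-3p, miR-331-3p and miR-106b. miR-376a, of the imprinted Dlk1-Dio3 cluster, had 309, 292 and 289.9 normalised counts in OGD+MS-275, against 191, 159 and 192 in Control (log2 fold change 0.71, SE 0.18; edgeR adjusted p = 0.0615). In OGD+CX-4945 it had 256, 361 and 271, and in OGD 273, 178 and 218. The OGD and Control samples lay below every OGD+MS-275 sample, and the OGD+CX-4945 samples on either side of them. miR-103, which lies in introns of pantothenate kinase genes, had 1038, 1069 and 959.6 in OGD+MS-275, against 577, 598 and 779.6 in Control (0.65, SE 0.17; adjusted p = 0.0615). miR-434-3p, of the same imprinted cluster as miR-376a, had 985 ± 27.9 and 649 ± 126 (0.60, SE 0.19; SD, n = 3 each). miR-331-3p had a log2 fold change of 0.54 (SE 0.17) and miR-106b, a relative of the miR-17-92 cluster, of 0.61 (SE 0.20).

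Most of the 12 lower miRNAs were abundant. miR-22, which in mouse heart represses the deacetylases Hdac4 and Sirt1, had 6617, 6623 and 6729 normalised counts in OGD+MS-275, against 9909, 10313 and 8788 in Control. The OGD+MS-275 samples were close together and all below Control, and the log2 fold change was -0.54 (SE 0.16; edgeR adjusted p = 0.0863). OGD samples had 9080, 11222 and 7233. miR-204, abundant in retinal pigment epithelium and choroid plexus, had 4237, 4803 and 4242 in OGD+MS-275, against 5389, 5696 and 5962 in Control (-0.36, SE 0.12; adjusted p = 0.109). miR-126-3p, the endothelial miRNA that guards vessel integrity, had 9416, 9467 and 9729, against 12237, 13533 and 10852 (-0.36, SE 0.13).

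miR-33, encoded within Srebf2, holds back the export of cholesterol from cells. It had 153, 182 and 193 normalised counts in OGD+MS-275, against 223, 234 and 264 in Control (log2 fold change -0.46, SE 0.15). miR-205, an epithelial miRNA, had the lowest fold change of the 24, with 33.7, 34.8 and 37.8 in OGD+MS-275, against 62.5, 73.7 and 50.2 in Control (-0.80, SE 0.22). Its groups did not overlap, but it exceeded the background limit in only 1 of the 3 OGD+MS-275 lanes. miR-720, a panel target since annotated as a tRNA fragment, had 14083, 18492 and 13589, against 20595, 22159 and 22320 (-0.50, SE 0.18). miR-99a, miR-27a, miR-135a, miR-30c, miR-669a and miR-199a-3p completed the lower 12, with log2 fold changes from -0.62 to -0.36.

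The 2 directions differed in abundance when miRNAs were classed by their Control mean. Of the 49 tested miRNAs with a Control mean of 1000 normalised counts or more, 2 were higher and 13 lower at an unadjusted p under 0.05, and their median log2 fold change was -0.12. Of the 95 between 100 and 1000 counts 13 were higher and 5 lower, and of the 73 under 100 counts 12 were higher and 5 lower, with medians of 0.05 and 0.07. The 3 called miRNAs were all in the lowest class. The Control mean that sets the class also enters the fold change, which by itself favours such a pattern. The filter also admits miRNAs low in Control when other lanes exceed the limit. The pattern is therefore a description, and its cause was not tested. 8 of the 24 also had a ligation slope past the threshold: miR-103 and miR-129-3p upward, and miR-22, miR-99a, miR-27a, miR-30c, miR-126-3p and miR-199a-3p downward, each in the direction of its fold change. miR-204 and miR-33 had slopes of 0.04 and 0.02, opposite in sign to their fold changes and not past the threshold.

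Some miRNAs that share a seed differed from Control in opposite directions. miR-27a, which restrains fat cell formation, had 5054, 5605 and 5653 normalised counts in OGD+MS-275, against 8419, 8527 and 6606 in Control (log2 fold change -0.53, SE 0.17). Its paralog miR-27b had 211, 243 and 175, against 168, 159 and 192 (0.28, SE 0.18). miR-27a was lower in all OGD+MS-275 samples, whereas miR-27b overlapped between the groups.

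In the miR-30 family, miR-30c had a log2 fold change of -0.45 (SE 0.16) and miR-30a of 0.40 (SE 0.17), with the other 3 tested members between 0.15 and 0.25. In the miR-15/16 family, which slows cell division, miR-15a had 3290, 2840 and 2852 in OGD+MS-275, against 4730, 4384 and 3510 in Control (-0.49, SE 0.21). miR-16, which has a copy beside miR-15a in the same transcript, had 14140, 16122 and 12596, against 11396, 10663 and 12575 (0.31, SE 0.12). The groups did not overlap for either, in opposite directions. miR-195 had 61.1 ± 9.70 and 30.7 ± 14.6 (0.96, SE 0.29; SD, n = 3 each), with 1 Control lane above the background limit.

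miR-99a had 3748 ± 169 normalised counts in OGD+MS-275 and 5190 ± 454 in Control (log2 fold change -0.47, SE 0.14), and miR-100, with the same seed, 4921 ± 791 and 4817 ± 369.8 (0.03, SE 0.15; SD, n = 3 each). miR-107 differs from miR-103 near the 3′ end and had 185 ± 1.31 and 152 ± 5.23 (0.28, SE 0.15), in the direction of miR-103. Each of these miRNAs has a count of its own on the panel, and how far close relatives share signal was not tested.

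Within-lane ratios of such pairs, which no scaling can move, did not overlap between the groups. Ratios can still follow the ligation yield where the members have ligation slopes of opposite sign. Slopes were -0.56 for miR-15a (edgeR adjusted p = 0.0116) and 0.19 for miR-16, and -0.31 for miR-99a and 0.27 for miR-100. They were -0.46 for miR-27a and 0.30 for miR-27b, and -0.41 for miR-30c and 0.31 for miR-30a. How far ligation yield moved these ratios was not tested. miR-15a was 23.3%, 17.6% and 22.6% of miR-16 in raw counts in the OGD+MS-275 lanes, against 41.5%, 41.1% and 27.9% in the Control lanes. miR-99a was 81.1%, 67.1% and 83.0% of miR-100, against 112.9%, 120.0% and 92.2%. In both pairs Control replicate 3, the Control lane with the highest ligation count, lay nearest to the OGD+MS-275 lanes. The OGD lanes spanned 22.7% to 43.1% for miR-15a over miR-16 and 82.7% to 131% for miR-99a over miR-100, reaching into the OGD+MS-275 range in both pairs. The OGD+CX-4945 lanes spanned 20.5% to 36.5% for miR-15a over miR-16, likewise reaching into the OGD+MS-275 range. For miR-99a over miR-100 they ran from 64.9%, below every OGD+MS-275 lane, to a value above every OGD+MS-275 lane. These pairs were chosen after their values were seen, so the ratios are a description with no test.

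**Figure D4:**
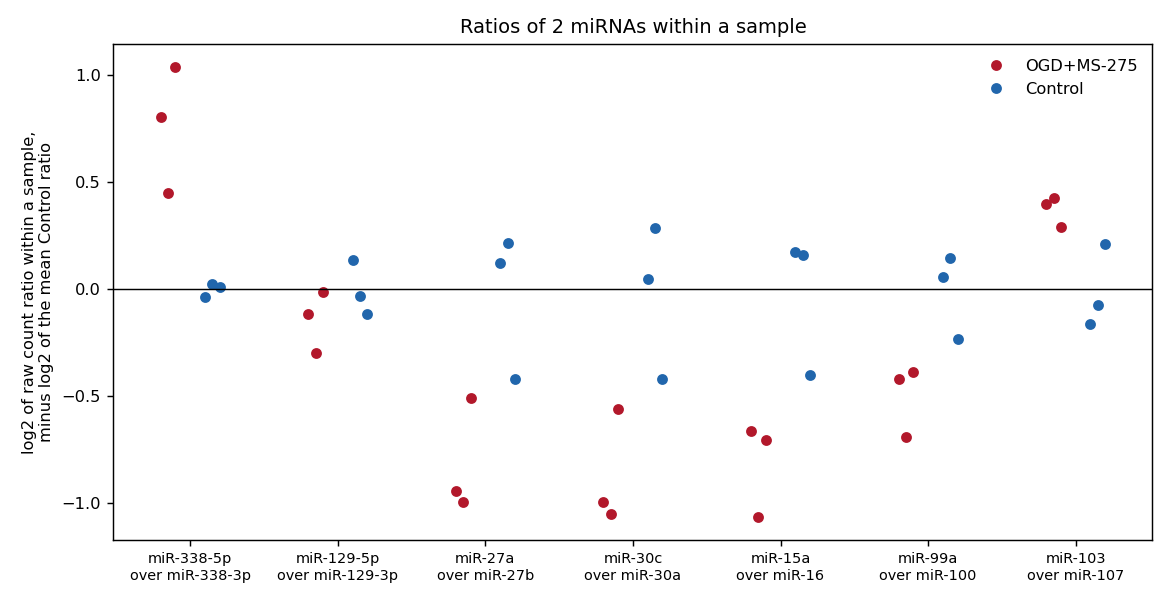
Ratio of the raw counts of 2 miRNAs within a lane, on a log2 scale relative to the mean ratio of the 3 Control lanes, for OGD+MS-275 (red) and Control (blue) lanes. The groups are apart for 6 of the 7 pairs and overlap for miR-129-5p over miR-129-3p.

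Lists of miRNAs with a shared role or locus were described by their counts and medians. Of the 59 panel miRNAs of the imprinted Dlk1-Dio3 cluster, active in neurons and glial precursors, 28 were tested. Of these, 22 had a higher mean (106 of 217 among all tested), none was called, and the median log2 fold change was 0.12. Their lane medians, as log2 differences from the Control mean, were 0.25, -0.09 and 0.29 in OGD+MS-275 and from -0.12 to 0.26 in Control, which overlapped. Next to miR-376a, miR-377 had 79.4, 58.3 and 74.5 normalised counts in OGD+MS-275, against 46.9, 34.2 and 46.1 in Control (0.73, SE 0.27). miR-136 had 2383 ± 312 in OGD+MS-275 and 3361 ± 634 in Control (-0.50, SE 0.21; SD, n = 3 each). The differentiation-linked let-7 family had 8 of 9 members lower, a median of -0.19 and none called. Its lane medians were -0.18, -0.02 and -0.26 in OGD+MS-275 and -0.05 to 0.09 in Control, with replicate 2 of OGD+MS-275 inside the Control range.

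The 4 tested p53-linked miRNAs all had higher means, with a median of 0.36 and none called. Their lane medians were 0.30, 0.40 and 0.36 in OGD+MS-275, above the Control range of -0.05 to 0.09. Among them, miR-34a, the best known p53 target, had 53.5 ± 2.84 in OGD+MS-275 and 52.5 ± 5.97 in Control (0.02, SE 0.23; SD, n = 3 each). miR-192 had 56.2, 60.9 and 56.1 in OGD+MS-275, against 37.8, 36.9 and 43.0 in Control (0.55, SE 0.21). miR-34b-5p had 48.6 ± 4.59 and 30.7 ± 0.96 (0.66, SE 0.30; SD, n = 3 each), and no Control lane above the background limit. The filter thus admitted miR-34b-5p through lanes outside Control, which favours a mean above Control. Counts of this size lay near the limit in both groups, so the lane medians are a description, and p53 activity was not tested.

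Among the red cell markers, only miR-451 did not overlap between the groups. miR-451, the main erythroid miRNA, had 783, 988 and 890.2 normalised counts in OGD+MS-275, against 1277, 1254 and 1160 in Control (log2 fold change -0.47, SE 0.17; edgeR adjusted p = 0.112). All OGD+MS-275 samples were below all Control samples. In OGD+CX-4945 it had 1042, 850.1 and 658, and in OGD 937, 773 and 928, which were likewise all below Control. The log2 difference of OGD+MS-275 from OGD was 0.01 (SE 0.17). The other erythroid miRNAs overlapped between the groups, with log2 fold changes of -0.29 (SE 0.18) for miR-144 and -0.01 (SE 0.19) for miR-486. All 3 had lower means (median -0.29). Their summed count, most of it miR-451, ran from 951 to 1191 in OGD+MS-275 and from 1362 to 1482 in Control. Whether red cell content had a part in other results was not tested.

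Endothelial and epithelial markers also had lower means. The 3 tested endothelial miRNAs had lower means (median -0.10, summed 9860 to 10229 in OGD+MS-275 and 11466 to 14005 in Control), carried by miR-126-3p. The 3 tested epithelial miRNAs of 11 on the panel had lower means (median -0.29, summed 139 to 189.9 in OGD+MS-275 and 179 to 230.4 in Control), with miR-205 at -0.80 and the other two overlapping between groups. Medians were -0.11 for 4 mural and fibroblast miRNAs, -0.26 for 4 of skeletal muscle, -0.13 for 5 of microglia and leukocytes, 0.10 for the 3 astrocyte-associated miR-29 members and 0.06 for 10 neuronal miRNAs. No member of these 7 lists was called. miR-124, the neuronal miRNA, had 6964, 7989 and 7488 in OGD+MS-275, against 7662, 8052 and 7944 in Control (-0.08, SE 0.11), with a 95% interval from -0.31 to 0.16. miR-142-3p, of microglia and leukocytes, had 359.9 ± 28.3 and 394 ± 44.9 (-0.13, SE 0.15; SD, n = 3 each).

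Of the tested miRNAs listed for hypoxia and inflammation, only miR-146b did not overlap between the groups. Among all 217 tested, 28.6% did not overlap, so this count says nothing particular about these lists. miR-210, which hypoxia-inducible factor switches on, had 357, 376 and 379 normalised counts in OGD+MS-275, against 339, 346 and 384 in Control (log2 fold change 0.06, SE 0.16, 95% interval -0.29 to 0.40). miR-21, induced by injury, had 1746, 2392 and 1580, against 1448, 1294 and 2008 (0.27, SE 0.21), and miR-146a, a brake on innate immune signalling, 610.2 ± 54.6 and 557 ± 36.5 (0.13, SE 0.15; SD, n = 3 each). miR-132, a neuronal activity miRNA, had a log2 fold change of -0.07 (SE 0.22). The groups overlapped for these 4. miR-146b, a relative of miR-146a, had 44.2, 56.6 and 38.8 in OGD+MS-275, against 28.6, 27.7 and 33.8 in Control (0.62, SE 0.25; edgeR adjusted p = 0.133). All its OGD+MS-275 samples were above Control, but no Control lane exceeded the background limit, so the filter admitted miR-146b through other lanes. Of single markers not yet given, log2 fold changes were 0.10 for miR-29a of astrocytes, -0.23 for miR-145 of smooth muscle, 0.12 for miR-1 of skeletal muscle, -0.21 for let-7c and 0.30 for the imprinted miR-127. 10 miRNAs listed as regulators of chromatin enzymes, among them miR-22, miR-124 and miR-137, had 5 higher and 5 lower means, none called, and a median of 0.01 that fell below the median of all miRNAs when the mRNA targets or positive controls set the scale.

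**Figure D5:**
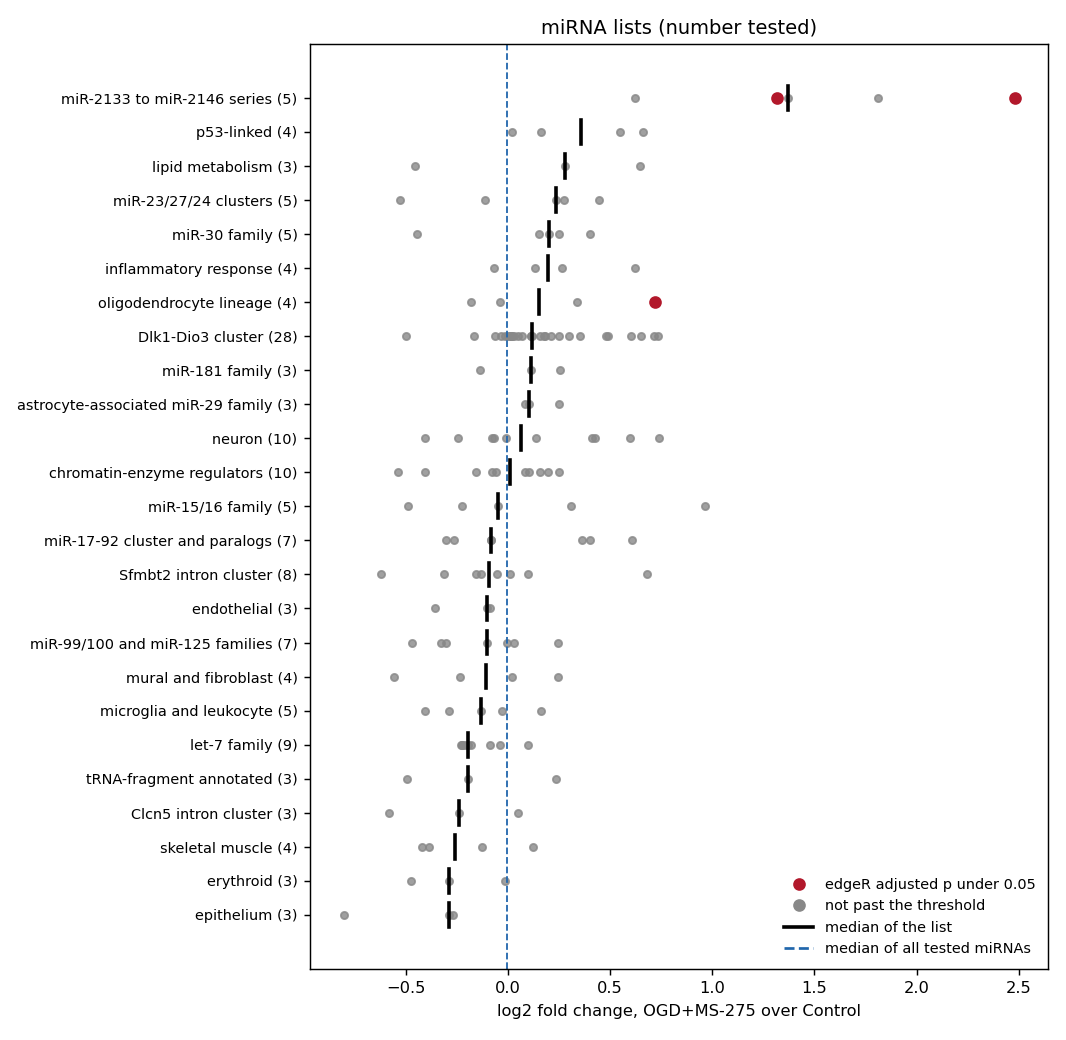
log2 fold change of OGD+MS-275 over Control for each tested member (points) of the lists with 3 or more tested members, with the list median (black bar) and the median of all tested miRNAs (dashed line). The miR-2133 to miR-2146 series stands apart at a median of 1.37, and the medians of the other lists lie between -0.29 and 0.36.

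The medians in the other lists were 0.28 for lipid metabolism (3 tested), 0.24 for the miR-23/27/24 clusters (5), 0.20 for the miR-30 family (5), 0.20 for inflammatory response (4), 0.11 for the miR-181 family (3), -0.08 for 7 miRNAs of the miR-17-92 cluster and its paralogs, -0.05 among 5 of the miR-15/16 family, -0.09 for the Sfmbt2 intron cluster (8), -0.10 for the miR-99/100 and miR-125 families (7), -0.20 for targets annotated as tRNA fragments (3) and -0.24 for the Clcn5 intron cluster (3). None of their members was called. None of the 24 miRNAs of an X-linked germline cluster on the panel reached the minimum for testing.

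The other groups put these values in place. OGD+MS-275 against OGD+CX-4945 had 0 of 217 called (0.0%; lowest edgeR adjusted p = 0.920), with 9 at an unadjusted p under 0.05 (4.15%). OGD+CX-4945 against Control and OGD against Control had 0 called (0.0%), with 18 (8.29%) and 12 (5.53%) at an unadjusted p under 0.05. OGD+MS-275 against OGD had 45 (20.7%). These comparisons share samples with the main one, so their counts are not independent of it. For miR-2141 the log2 difference of OGD+MS-275 was 1.37 from Control and 1.63 (SE 0.39) from OGD, and for miR-22 it was -0.54 and -0.46 (SE 0.16). For miR-33 it was -0.46 from Control and -0.30 (SE 0.15) from OGD, and for miR-376a 0.71 and 0.40 (SE 0.18). None of these 4 passed in either comparison.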

How the data were processed

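The main table holds the deposited raw count of every target in every nCounter lane, unnormalised per the file headers. A second table holds the authors' deposited processed signal. Subtracting the negative controls' median from each count and multiplying by an mRNA-based factor rebuilt that signal up to a constant per lane. This constant was fitted and lay between 0.9975 and 1.0041. With it, values over 20 were matched to within 0.0154. The deposited signal was an alternative only, as log2(deposited value + 1). 1 row with no target name was left out.

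The labels' agent field gave the groups. The miRNAs, lists and tests were chosen with earlier results of these data known. Lane totals are in the report. Untested miRNAs held 1.21% of the count. 5 tested targets name more than 1 miRNA. The test was edgeR's quasi-likelihood test (edgeR 4.0.16, R 4.3.3) on raw counts of 217 miRNAs, using TMM scaling and a robust spread estimate from all 12 samples, with a mean per group and 8 residual degrees of freedom. The common biological coefficient of variation was 16.6%, above counting error for all but the lowest counts. Benjamini-Hochberg adjustment ran over the 217, with a threshold of 0.05. SE is the log2 fold change over the root of F. Normalised counts are TMM-scaled, and background was not subtracted. The rule for named miRNAs took those called, the 12 smallest p in each direction and 21 listed for their known roles or earlier results, 39 in all. miR-192, miR-34b-5p, miR-146b, miR-195, miR-377, miR-136, miR-138 and the paralogs and arms set beside a named miRNA were named after their values were seen. Nothing in the labels says that samples are separate animals, so p-values measure the spread between samples, which may be technical. The fit was tested on simulated data. Alternatives were other scalings, DESeq2 1.42.0, limma-voom (limma 3.58.1), other filters, background subtraction, the ligation count and the title numbers as covariates, the 6 samples alone, and leaving out each sample.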

Additional observations from a re-analysis of the deposited data

How the results depend on the processing

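For OGD+MS-275 against Control, where 3 miRNAs were called, DESeq2 called 12, limma-voom 6, the 6 samples alone 19, the title-number block of 2 sets 9 and that of 3 sets 37 (18 higher, 19 lower), each with the 3 among them. No filter left 1, and background subtraction, the ligation covariate and the block of 3 sets with the ligation covariate left 0 each. The 3 called among miRNAs above the limit in all 12 lanes were miR-2140, miR-103 and miR-376a, since the original 3 were not tested there. limma on the deposited signal called miR-2134, miR-2140 and miR-2141. Leaving out a sample gave 0 to 13 calls, 0 to 2 for the 6 compared samples, with 13 without OGD+CX-4945 replicate 1, 9 without its replicate 3, 5 without its replicate 2 and 8 without OGD replicate 3. The labels do not say what the title numbers mark, OGD+MS-275 lacks the third set, and the sets were run as a block only for comparison.

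For OGD+MS-275 against OGD, with 1 call, ligation scaling, the filter on all 12 lanes, background subtraction, the ligation covariate and the block with ligation gave 0 each. mRNA scaling gave 7, positive-control scaling 5, DESeq2 2, the deposited signal 4, and the block of 3 sets 24 and of 2 sets 2. Leaving out a sample gave 0 to 3. Against OGD+CX-4945, mRNA scaling gave 1 call and all other settings 0. The 50 miRNAs at an unadjusted p under 0.05 became 27 (all higher) with mRNA scaling, 31 (all higher) with positive-control scaling, 33 with the filter on all 12 lanes, 15 with the deposited signal, 21 with the ligation covariate and 9 with the block and ligation. Leaving out a sample gave 28 (without Control replicate 2) to 54. With ligation scaling there were 52, of which 4 were higher. The cause of these differences was not tested. The log2 ratio of the ligation controls ran from 0.67 to 1.11. No called value changed direction. Counts of miR-2133 and miR-2134 in Control lay at or near the background limit.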
